A study of Mus musculus with 26 samples.

Results

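Adipokines are proteins that fat cells secrete into the blood or into the tissue around them. The 8 followed here, Lep, Adipoq, Retn, Apln, Cfd, Hp, Rbp4 and Agt, were chosen by gene symbol as factors secreted by adipocytes in general. No threshold on a measured value was used, but earlier results of these data were known at the choice. The adipokines are 8 of the 48432 genes in a table of RNA-seq expression values from the brown adipose tissue of mice. The table holds 26 libraries in 8 groups, and each mouse was 2 months old. All mice carried loxP-flanked (floxed) alleles of Klf15, the gene for a zinc finger transcription factor. Mice without Cre (flox/flox, here FF) served as the controls, and in the mice called BKO the gene was deleted by a Cre recombinase under control of the Ucp1 promoter, whose activity is restricted mainly to brown and related thermogenic adipocytes. Each genotype was studied fed at room temperature (3 libraries), fasted at room temperature (3), exposed to a cold challenge (4) and exposed to cold plus fasting (3). The durations of cold and fasting are not given in the sources used here. The study asked how loss of Klf15 changes transcription in brown fat under fasting and cold.

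Leptin, the product of Lep, reports fat stores to the brain, and its mRNA in white fat is known to fall with fasting. Adiponectin (Adipoq) raises insulin sensitivity through the receptors Adipor1 and Adipor2, and resistin (Retn) is a cysteine-rich hormone that is specific to adipocytes in mice. Apelin (Apln) is a peptide that acts on blood vessels through the receptor Aplnr, and angiotensinogen (Agt) is the precursor of the vasoconstrictor angiotensin. The remaining 3 are better known as plasma proteins. Adipsin (Cfd) is complement factor D, the serine protease that cleaves factor B in the alternative complement pathway, haptoglobin (Hp) binds free hemoglobin, and Rbp4 carries retinol. The liver is a main source of haptoglobin, Rbp4 and angiotensinogen.

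The values are FPKM, fragment counts that the authors scaled by transcript length and library size. On GRCm38 the genes lie at chr6:29060220-29073877 (Lep), chr16:23146536-23158028 (Adipoq), chr8:3655770-3660110 (Retn), chrX:48025146-48034853 (Apln), chr10:79890853-79892655 (Cfd), chr8:109575128-109579172 (Hp), chr19:38116629-38125281 (Rbp4) and chr8:124556534-124569706 (Agt). Between 11345 and 11868 genes reached 1 FPKM per library, and steps in the low values put the depth at about 20300000 to 31200000 fragments, an estimate. Klf15 lay between 9.03 and 30.6 FPKM in the 13 FF libraries and between 2.12 and 8.92 in the 13 BKO libraries, with no overlap. Values of single libraries correlated on average at 0.976 to 0.989 with the others of their group. The highest correlation of each with a library of another group was about as large, at 0.972 to 0.989. Library descriptions carry running numbers, 1 to 8 or 15 to 32. All 3 FF fasted libraries, 3 of 4 FF cold and 2 of 3 FF fed libraries have a number of 1 to 8, and every other library a number of 15 to 32. Genotype and number series therefore cannot be told apart in the fasted mice at room temperature. Nor can temperature and number series between fasted FF mice and FF mice in cold plus fasting. Of 7 hepatocyte markers, Ttr and Fgb were listed at 0 in all 26 libraries, Alb, Ahsg, Apoa1 and Serpina1a stayed at or under 0.324 FPKM, and Apoa2 lay at 1.07 to 3.81 FPKM. The 7 summed to 1.21 to 4.09 FPKM, and Apoa2, the 1 tested, was called higher in BKO mice in cold plus fasting than when fed, by 0.70 (SE 0.19) on the log2 scale. Of 6 white adipocyte markers, Hoxc9, Hoxc10 and Tcf21 reached at most 0.0463 FPKM, while Hoxc8 lay at 0.654 to 2.73, Slc7a10 at 1.37 to 4.49 and Nnat at 0.223 to 5.02 FPKM. The brown adipocyte marker Cidea was at 1600 to 2310 FPKM. The part of such cells in the values of Hp, Rbp4, Agt and Lep was not tested. Ucp1 was listed at 0 in all 8 libraries of the cold challenge, in none of the others, and was not tested. These are values of whole tissue, in which fewer cells of a type and less RNA per cell cannot be told apart.

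The promoters of 3 adipokines that moved in different ways, Lep with fasting and Cfd and Apln with temperature, are printed to show the sequence next to their start sites. Of the 8 genes, 7 have a window of 250 bases before to 50 bases after an annotated start in RefSeq on GRCm38.p6, the mouse build that mm10 names. Hp has none in the table, and Rbp4 has 2. Letters are 5′ to 3′ on the gene's strand, and capitals mark matches on either strand to a C/EBP motif TTGCNNAA, a KLF motif CCNCNCCC, the hypoxia response core ACGTG or the box TATAAA. The direct repeat of AGGTCA spaced by 1 base, bound by PPAR and RXR, and the glucocorticoid receptor motif of AGAACA and TGTNCT spaced by 3 bases were searched too. Lep is read from chr6:29059971-29060270 (plus strand), Cfd from chr10:79890603-79890902 (plus strand) and Apln from chrX:48034804-48035103 (minus strand).
Lep: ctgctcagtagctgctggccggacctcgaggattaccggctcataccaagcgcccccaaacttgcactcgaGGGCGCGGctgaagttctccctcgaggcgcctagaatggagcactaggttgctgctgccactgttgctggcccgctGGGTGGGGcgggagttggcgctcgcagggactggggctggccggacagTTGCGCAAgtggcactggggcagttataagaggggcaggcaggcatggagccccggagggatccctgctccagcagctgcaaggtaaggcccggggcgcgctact
Cfd: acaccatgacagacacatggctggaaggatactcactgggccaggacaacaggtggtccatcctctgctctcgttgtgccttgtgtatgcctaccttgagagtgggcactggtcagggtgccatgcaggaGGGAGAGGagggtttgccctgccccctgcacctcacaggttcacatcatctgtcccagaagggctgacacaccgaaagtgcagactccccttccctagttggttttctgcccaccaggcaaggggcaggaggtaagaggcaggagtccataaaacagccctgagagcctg
Apln: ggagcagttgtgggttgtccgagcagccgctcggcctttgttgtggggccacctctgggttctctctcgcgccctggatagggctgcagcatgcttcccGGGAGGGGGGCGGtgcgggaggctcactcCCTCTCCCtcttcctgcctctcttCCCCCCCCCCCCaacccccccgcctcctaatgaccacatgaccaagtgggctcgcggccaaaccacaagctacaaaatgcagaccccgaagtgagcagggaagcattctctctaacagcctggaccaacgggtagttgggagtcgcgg

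The Lep window held a C/EBP match of TTGCGCAA at -55, counted from the start site, and 2 KLF matches. The Cfd window held 1 KLF match at -120, and the Apln window 8 KLF matches, 5 of them overlapping in a single run of C. KLF matches stood in 49.5% of all 32851 windows of this length, C/EBP matches in 10.8%, the hypoxia core in 19.6% and TATAAA in 13.6%, while the PPAR and the glucocorticoid motif were each found in 0.0396%. Retn, Agt and both Rbp4 windows also held a KLF match, and Adipoq held a match to no motif searched. TATAAA stood at -30 in Agt and at -28 in one window of Rbp4. That Rbp4 window also held a C/EBP match, TTATGCAA at -128, and the hypoxia core at -189. A match describes letters only and shows no binding.

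**Figure D1:**
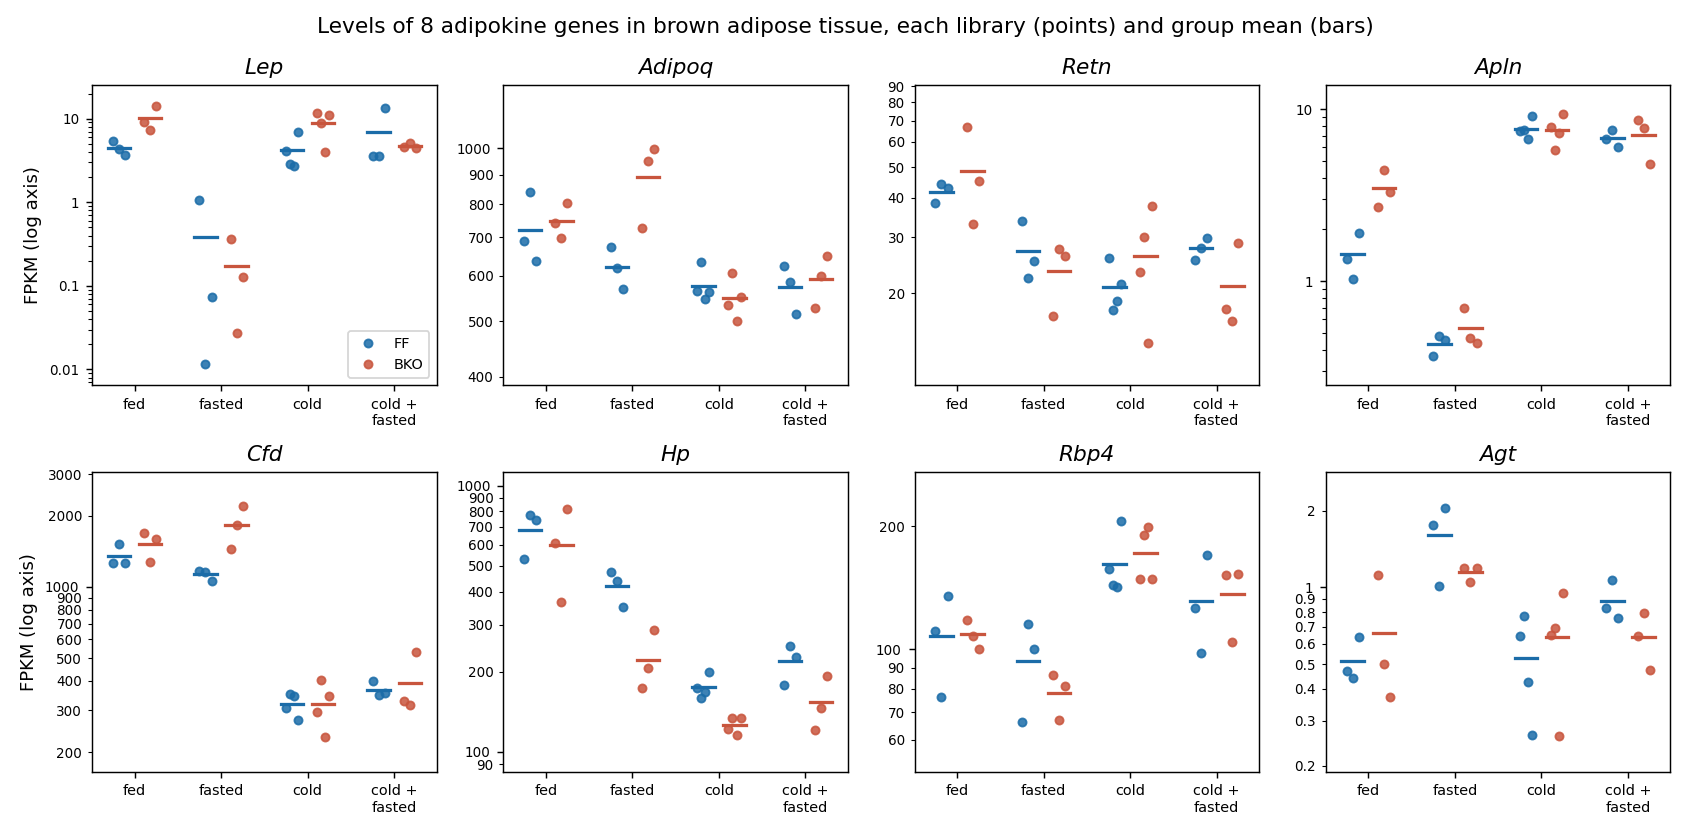
FPKM of the 8 adipokine genes (log axes) in FF mice (blue) and BKO mice (red) that were fed, fasted, in cold or in cold plus fasting; each point is a library and each bar a group mean. Lep and Apln are lowest in the fasted mice at room temperature, Cfd and Hp are low in all 14 libraries of the cold groups, and Adipoq stays between 501 and 997 FPKM.

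Levels spanned more than 3 orders of magnitude between members. Over all 26 libraries Cfd averaged 858 FPKM and ranked 76 by level among the 12702 genes that were tested. Adipoq averaged 652 FPKM (rank 107), Hp 311 (rank 213) and Rbp4 127 (rank 525). Retn averaged 29.2 FPKM, Lep 5.12 and Apln 4.63. Agt was the scarcest at 0.808 FPKM, rank 12194. All 8 passed the filter of at least 1 FPKM in 3 libraries, but Agt reached 1 FPKM in only 8 libraries, 6 of them from fasted mice at room temperature, and without that condition it would not have passed.

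Differences below are on the log2(FPKM + 1) scale with their standard errors (SE), from limma over all 26 libraries, and adjusted p-values are Benjamini-Hochberg values over all genes tested. A gene is called changed at an adjusted p under 0.05. Of the 8 adipokines, fasting at room temperature changed 4 in FF mice, 1 up (Agt, which passed the filter through this condition) and 3 down, where 37.5% of all genes were called. It lowered 4 in BKO mice, where 27.4% were called. Cold changed 6 in each genotype, 2 up and 4 down, against 23.6% of all genes in FF and 16.2% in BKO mice. Cold plus fasting changed 3 in FF (background 20.5%) and 5 in BKO mice (background 19%). Because the fed libraries are shared, these comparisons within a genotype are not independent. The median difference of the 8 was -0.44 with fasting, -0.23 with cold and -0.02 with both in FF mice, and -0.73, -0.34 and -0.63 in BKO mice. The median of all genes stayed between -0.006 and 0.005 in these 6 comparisons.

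**Figure D2:**
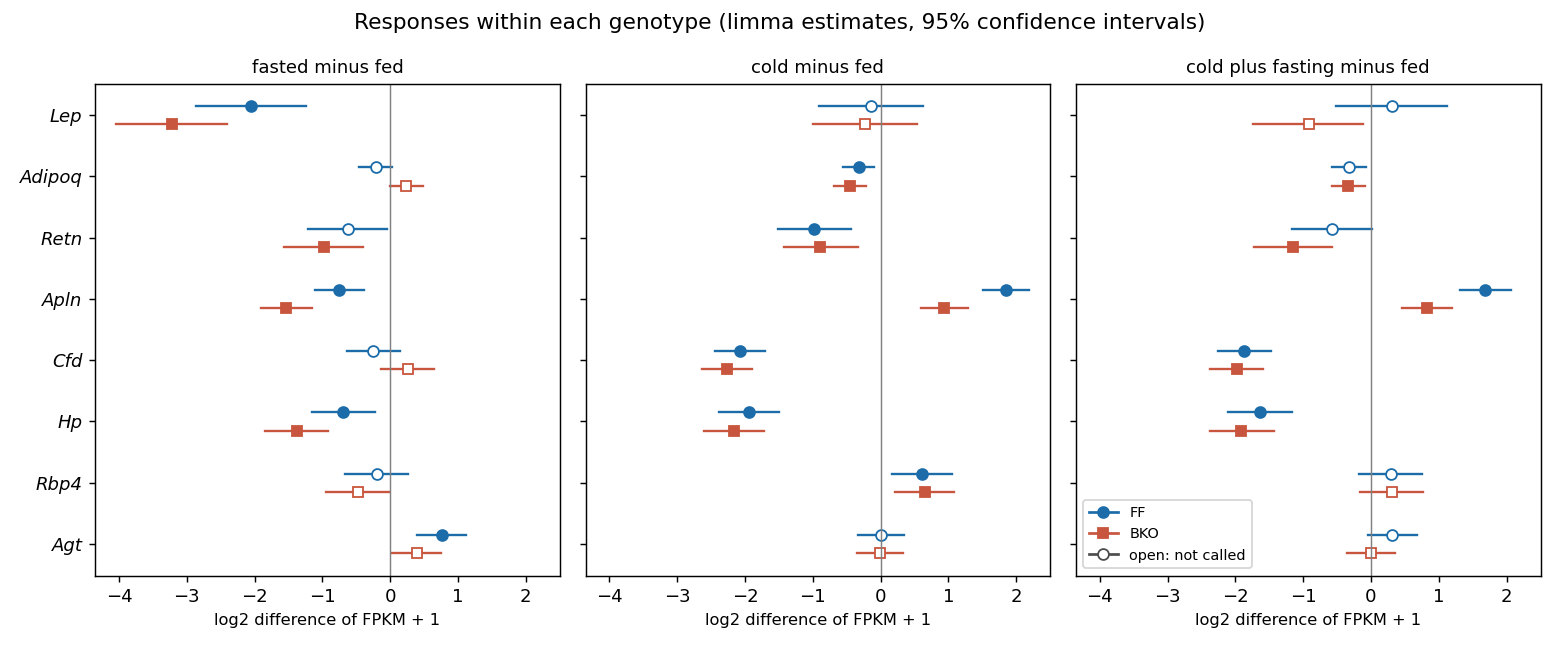
Log2 differences of FPKM + 1 from fed mice at room temperature (x axis) for each adipokine in FF (blue circles) and BKO mice (red squares), with 95% confidence intervals; filled symbols passed an adjusted p of 0.05. Lep is called only with fasting at room temperature. Its interval in BKO mice in cold plus fasting, -1.74 to -0.11, also lies under 0, with an adjusted p of 0.106. Cfd and Hp fall by about as much in cold as in cold plus fasting.

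Lep was called lower with fasting at room temperature in both genotypes, and was not called when fasting was added to cold. In fed FF mice the libraries read 5.42, 4.38 and 3.66 FPKM, and in fasted FF mice 1.06, 0.0116 and 0.0744 FPKM. In fed BKO mice they read 9.17, 7.36 and 14.2 FPKM, and in fasted BKO mice 0.363, 0.0276 and 0.129. No fasted library reached the lowest fed one in either genotype, and the fasted libraries of a group themselves differed widely. At the estimated depth the lowest value, 0.0116 FPKM, amounts to 0.899 fragments and the others to 2.68 to 90.1, so levels within the fasted groups are poorly set. The mean in fasted mice was 8.5% of the fed mean in FF and 1.69% in BKO mice, though without FF fasted library 1 that share was 0.958% and without BKO fasted library 1 it was 0.764%. The log2 difference was -2.06 (SE 0.39, adjusted p = 0.000287) and -3.22 (SE 0.39, adjusted p = 2.26e-06). With a pseudocount of 0.1 in place of 1 these differences became -4.00 and -5.39, since the scale compresses low values.

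In cold, Lep was at 4.16, 2.89, 2.69 and 6.93 FPKM in FF mice and at 11.7, 8.77, 3.97 and 11.1 in BKO mice. In cold plus fasting it was at 3.62, 3.55 and 13.6 FPKM in FF mice and at 4.62, 5.12 and 4.51 in BKO mice. All 6 of these fasted cold libraries lay above all 6 fasted libraries at room temperature, by 18.2-fold in the FF means and 27.5-fold in the BKO means. Single libraries set these folds: the FF fold was 9.38 without the library at 13.6 FPKM and 161 without FF fasted library 1, and the BKO fold 60.7 without BKO fasted library 1. Without the library at 13.6 FPKM the log2 difference of cold plus fasting from fasting in FF mice was 1.81 in place of 2.37, and the call held. Against fed mice, cold plus fasting gave 0.31 (SE 0.39, adjusted p = 0.627) in FF and -0.92 (SE 0.39, adjusted p = 0.106) in BKO mice. Neither passed, though the BKO mean was 46.5% of the fed mean and those BKO groups did not overlap. Between genotypes Lep was higher in each of the 3 fed BKO libraries than in any fed FF library, by 2.28-fold in the means, but the log2 difference of 1.00 (SE 0.39) did not pass (adjusted p = 0.724). The same held in cold, at 0.92 (SE 0.34, adjusted p = 0.881), where the groups overlapped. Of the white adipocyte markers, Nnat fell with fasting by 0.97 (SE 0.25) in FF and 1.15 (SE 0.25) in BKO mice. It was higher in cold plus fasting than in fasting by 0.90 (SE 0.25) and 0.66 (SE 0.25). In cold its BKO mean was 1.64 FPKM against 3.45 when fed, where Lep was not called. Hoxc8 averaged 1.37 FPKM in fed and 0.797 in fasted FF mice, and 1.35 and 0.902 in BKO mice. Slc7a10 did not fall with fasting, at 2.02 (SD 0.867) and 2.14 (SD 0.734) FPKM in FF mice and 2.8 (SD 1.47) and 3.47 (SD 1.1) in BKO mice. The 6 white adipocyte markers summed to 4.74 to 5.99 FPKM in fed, 2.87 to 4.61 in fasted and 6.34 to 8.20 in cold plus fasting FF mice, and to 5.86 to 8.58, 3.75 to 6.22 and 4.46 to 6.56 in BKO mice.

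Adipoq varied least. Its group means lay between 549 FPKM (SD 44.6, n = 4) in BKO mice in cold and 891 FPKM (SD 144, n = 3) in fasted BKO mice. In order of level, each of the 8 groups overlapped with the next. Cold lowered it by 0.32 (SE 0.11, adjusted p = 0.0414) in FF and by 0.45 (SE 0.11, adjusted p = 0.00761) in BKO mice, where the 4 libraries in cold, at 534, 608, 501 and 552 FPKM, all lay under the fed ones at 741, 697 and 804. The FF call ended in 9 alternatives, among them leaving out FF fed library 1 or 2 or FF cold library 1, 3 or 4, with adjusted p of 0.0773 to 0.271 for these. The small decrease called in BKO mice in cold plus fasting, by 0.34 (SE 0.12, adjusted p = 0.0489), was lost in 20 of 36 alternatives, including the removal of libraries of other groups. Fasted BKO mice, at 726, 949 and 997 FPKM, lay above fasted FF mice at 674, 620 and 570.

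Retn had its highest group means in the fed mice, at 38.4, 44.2 and 43.0 FPKM in FF and at 67.1, 33.1 and 45.3 in BKO mice. In cold it read 25.8, 17.7, 18.9 and 21.4 FPKM in FF mice and 23.3, 30.2, 13.9 and 37.8 in BKO mice. The FF groups did not overlap and the BKO groups did. The decrease with cold was 0.98 (SE 0.26, adjusted p = 0.00978) in FF and 0.89 (SE 0.26, adjusted p = 0.0238) in BKO mice. With only the libraries numbered 15 to 32, which leave 1 FF library in each of these groups, the FF difference was -0.72 (adjusted p = 0.712). Without BKO fed library 1, the highest of all, the latter dropped to 0.63 (adjusted p = 0.155), and it also missed the threshold without BKO cold library 1 or 3 or BKO fed library 3. Fasting lowered Retn in BKO mice by 0.98 (SE 0.28, adjusted p = 0.0117), a call lost without BKO fed library 1 (adjusted p = 0.0919) or BKO fasted library 1 (adjusted p = 0.0754). In FF mice the fasting difference was -0.62 (SE 0.28, adjusted p = 0.0857).

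Apln moved up with cold and down with fasting. It read 1.35, 1.03 and 1.91 FPKM in fed FF mice, 0.366, 0.479 and 0.457 in fasted FF mice and 7.45, 7.58, 6.71 and 9.10 in FF mice in cold. These 3 groups did not overlap. In BKO mice it read 2.69, 4.44 and 3.30 FPKM when fed, 0.702, 0.468 and 0.436 when fasted, and 7.87, 5.82, 7.25 and 9.41 in cold, again without overlap. The rise with cold was 1.85 (SE 0.17, adjusted p = 7.97e-08) in FF mice and 0.94 (SE 0.17, adjusted p = 0.000422) in BKO mice, and the groups in cold overlapped, with means of 7.71 and 7.59 FPKM (95% confidence interval of the BKO difference from FF -0.35 to 0.29). The decrease with fasting was 0.75 (SE 0.18, adjusted p = 0.00215) in FF and 1.53 (SE 0.18, adjusted p = 1.22e-06) in BKO mice. With a pseudocount of 0.1 the fasting differences were -1.49 and -2.49, and all 4 calls held.

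The starting level of Apln differed: fed BKO mice had 2.43 times the mean of fed FF mice, with no overlap, and a difference of 0.88 (SE 0.18, adjusted p = 0.0281). That call ended in 8 of 35 alternatives. They included leaving out FF fed library 1 or 2 or BKO fed library 2 or 3, and the label number as a covariate (adjusted p = 0.547). Whether the response to a stress differed between genotypes was tested directly. The difference of the responses to cold was -0.91 (SE 0.23) and of those to fasting -0.78 (SE 0.25). Neither passed, with adjusted p of 0.686 and 0.164, and both passed when libraries were weighted by their quality (array weights), with adjusted p of 0.0107 and 0.0321. Endothelial cells are a known source of apelin, and the summed level of 6 endothelial markers was 137 to 139 FPKM in fed FF mice and 163 to 191 in FF mice in cold. Of the 5 endothelial markers tested, 3 rose and 1 fell with cold in FF mice, where 23.6% of all genes were called. From fed to cold the FF mean of Kdr went from 31.6 to 52.1 FPKM and that of Pecam1 from 35.4 to 47.7. That of Cdh5 went from 42 to 52.9 FPKM, of Dll4 from 6.6 to 7.39 and of Tie1 from 22.4 to 17.3. In fasted FF mice, where Apln was lower than in fed mice, the sum was 144 to 146 FPKM. Of the 5 tested, 1 rose and 1 fell with fasting there, where 37.5% of all genes were called. Means in fasted FF mice were 22.2 FPKM for Kdr, 50.6 for Pecam1, 47.9 for Cdh5, 5.16 for Dll4 and 19.7 for Tie1. The part of endothelial cells in the Apln values was not tested.

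Cfd and Hp were the adipokines most reduced by cold. Cfd stood at 1261, 1522 and 1264 FPKM in fed FF mice and at 308, 353, 346 and 274 in FF mice in cold. It stood at 1685, 1271 and 1596 FPKM in fed BKO mice and at 295, 405, 231 and 347 in BKO mice in cold. The highest of the 14 libraries of the cold groups, 529 FPKM in cold plus fasting, lay under the lowest of the 12 at room temperature, 1064 FPKM. Cold lowered Cfd by 2.07 (SE 0.18, adjusted p = 4.42e-08) in FF and by 2.26 (SE 0.18, adjusted p = 1.35e-08) in BKO mice, and cold plus fasting by 1.87 (SE 0.19) and 1.98 (SE 0.19). Fasting alone gave -0.25 (SE 0.19, adjusted p = 0.322) in FF and 0.26 (SE 0.19, adjusted p = 0.338) in BKO mice.

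Hp stood at 530, 777 and 745 FPKM in fed FF mice, at 473, 439 and 351 in fasted FF mice and at 173, 160, 168 and 199 in FF mice in cold. In BKO mice it stood at 608, 366 and 819 FPKM when fed, at 173, 207 and 286 when fasted and at 122, 134, 116 and 134 in cold. No 2 of these 6 groups overlapped within a genotype. Unlike Cfd, Hp was also called lower with fasting at room temperature, by 0.69 (SE 0.23, adjusted p = 0.0211) in FF and by 1.38 (SE 0.23, adjusted p = 9.64e-05) in BKO mice. The FF call ended without FF fed library 2 or 3 or FF fasted library 3, with adjusted p of 0.0736 to 0.1, and with array weights. Cold lowered Hp by 1.94 (SE 0.21, adjusted p = 1.39e-06) in FF and by 2.16 (SE 0.21, adjusted p = 4.81e-07) in BKO mice, and both calls held in every alternative run. Neutrophils can also carry haptoglobin, and the summed level of their 7 markers, between 0.734 and 12.1 FPKM in all groups, was highest in a fed BKO library; its part was not tested.

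Dissected brown fat can hold muscle, so 6 skeletal muscle markers were followed, and of these Mb moved with the same cold groups. It rose by 4.15 (SE 0.30, adjusted p = 3.17e-09) with cold in FF and by 3.31 (SE 0.30, adjusted p = 1.41e-07) in BKO mice. Of the 5 muscle markers tested, Mb was the 1 that was called higher in each, and the other 4 did not pass. In FF mice in cold Mb averaged 53.6 FPKM (SD 9.44). There Acta1 averaged 16.3 (SD 15.7), Myh4 6.44 (SD 7.04), Ckm 7.88 (SD 7.49) and Tnnt3 11.3 (SD 11.8). In BKO mice in cold Mb averaged 35.1 FPKM (SD 6.75), so Mb was a large part of the sums that follow. The summed level of the 6 listed was 63.5 to 149 FPKM in FF and 39.4 to 138 in BKO mice in cold, against 1.33 to 30.1 and 6.98 to 57.4 in fed mice. The cell source of Mb and the part of muscle in the adipokine values were not tested. The 6 general adipocyte markers summed to 10100 to 12900 FPKM in FF mice in cold and to 10200 to 12100 in fed FF mice. Fabp4 alone averaged 8670 and 8150 FPKM there, so these sums mostly follow Fabp4.

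Rbp4 was the second adipokine called higher in cold. It read 111, 76.4 and 135 FPKM in fed FF mice and 157, 144, 142 and 206 in cold. In BKO mice it read 118, 108 and 100 FPKM when fed and 149, 191, 199 and 149 in cold. Each cold library lay above each fed library of its genotype. The rise was 0.61 (SE 0.21, adjusted p = 0.0385) in FF and 0.65 (SE 0.21, adjusted p = 0.0379) in BKO mice. Both calls stood near the threshold and were lost under quantile normalization (adjusted p = 0.109 and 0.0937), with no filter on low values (0.0826 and 0.0816) and without any of several single libraries, namely FF cold 1 or 4, FF fed 1 or 2, BKO cold 2 or 3 and each BKO fed library in turn. With only the libraries numbered 15 to 32 the FF value was 0.22 (adjusted p = 0.898), from 1 library in each group. Fasting gave -0.20 (SE 0.22) and -0.48 (SE 0.22), and neither passed.

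Agt was scarce, and was called higher with fasting in FF mice, the condition through which it passed the filter. It read 0.468, 0.440 and 0.637 FPKM in fed FF mice and 1.75, 1.01 and 2.05 in fasted FF mice, without overlap. In BKO mice it read 1.12, 0.502 and 0.372 FPKM when fed and 1.19, 1.05 and 1.19 when fasted, with overlap. The difference was 0.76 (SE 0.17, adjusted p = 0.00159) in FF mice, or 1.43 with a pseudocount of 0.1, and 0.39 (SE 0.17, adjusted p = 0.1) in BKO mice. The difference between these responses, -0.37 (SE 0.25), did not pass (adjusted p = 0.617). Without BKO fed library 1, the highest fed value, the BKO response was 0.58 (adjusted p = 0.0242). Cold left the mean at 0.527 FPKM (SD 0.226, n = 4) in FF and 0.638 FPKM (SD 0.283, n = 4) in BKO mice, with 95% confidence intervals of the difference from fed mice of -0.34 to 0.34 and -0.35 to 0.33.

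Loss of Klf15 was associated with few called adipokines, and each of those calls depended on the fit. In fed mice 1 of the 8, Apln, was called between BKO and FF, where 0.22% of all genes were. In fasted mice it was 3, where 8.68% of all genes were called. In cold (background 0.402%) and in cold plus fasting (background 0.236%) limma called 0 of 8, with unadjusted p under 0.05 for 2 and 1 of them, as for 3.76% and 5.74% of all genes. In the fasted mice Adipoq was higher by 0.51 (SE 0.12, adjusted p = 0.00913) and Cfd by 0.67 (SE 0.19, adjusted p = 0.0292), while Hp was lower by 0.94 (SE 0.23, adjusted p = 0.0123), a mean of 222 against 421 FPKM. Cfd read 1172, 1159 and 1064 FPKM in fasted FF mice and 1453, 1823 and 2197 in fasted BKO mice, and none of the 3 genes overlapped between the genotypes. Of the 6 general adipocyte markers, 2 were also called higher in fasted BKO than in fasted FF mice, and 4 were not called. Plin1 averaged 541 FPKM (SD 90.3) in fasted BKO against 254 (SD 96.5) in fasted FF mice, and Lipe 643 (SD 49.9) against 514 (SD 61.7). Their relation to the adipokine differences was not tested.

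With the label number as a covariate, none of the calls between genotypes remained, at adjusted p of 0.0639 for Adipoq, 0.197 for Cfd and 0.15 for Hp in fasted mice, while the differences themselves became 0.65, 0.77 and -1.03. They were also lost when only the 6 fasted libraries were fitted (adjusted p = 0.165, 0.125 and 0.102). Single libraries decided them as well. Adipoq missed the threshold without FF fasted library 3 or BKO fasted library 3, Cfd without FF fasted library 1 or 3 or BKO fasted library 2 or 3, and Hp without BKO fasted library 1 (adjusted p = 0.061). Averaged over the 4 conditions Hp was the 1 adipokine called, lower in BKO mice by 0.54 (SE 0.11, adjusted p = 0.00645), where 2.97% of all genes were called. Its differences by condition were -0.25, -0.94, -0.46 and -0.52, and the averaged call was lost only with the label number as a covariate (-0.60, adjusted p = 0.303).

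**Figure D3:**
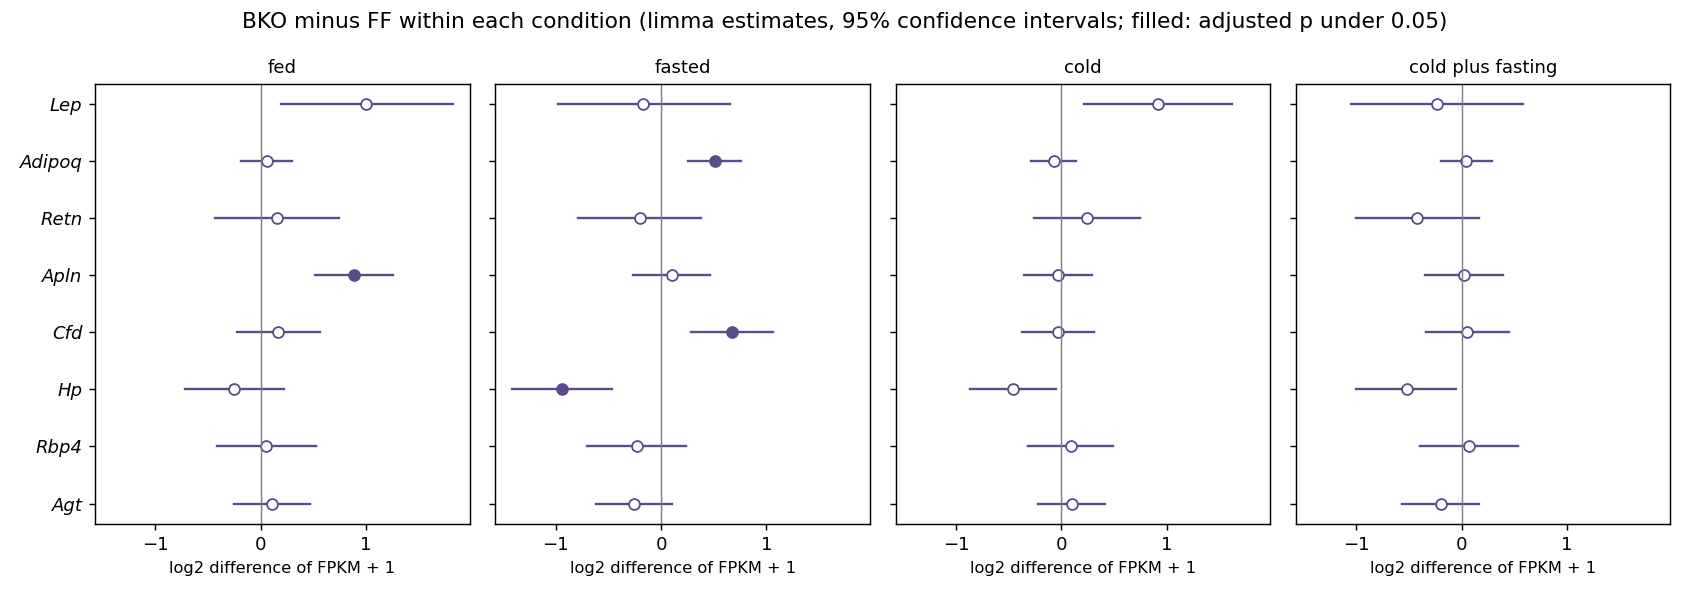
Log2 differences of FPKM + 1 between BKO and FF mice (x axis) for each adipokine in the 4 conditions, with 95% confidence intervals; filled circles passed an adjusted p of 0.05. Apln in fed mice and Adipoq, Cfd and Hp in fasted mice are filled, and in both cold conditions every circle is open.

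Tests of the difference between the genotypes' responses called 0 of 8 adipokines for fasting (background 0.716%), for cold (background 0.00787%) and for cold plus fasting (background 0.00787%). At an unadjusted p under 0.05, 4, 1 and 2 of the 8 passed, against 12%, 3.4% and 3.79% of all genes. The intervals were wide for Lep, at -2.32 to -0.01 for fasting, and narrower for Adipoq, at 0.11 to 0.80 with an adjusted p of 0.242.

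Adding fasting to cold moved 0 of 8 adipokines in FF mice, where 0% of all genes were called, and 0 of 8 in BKO mice, where 0.00787% were. At an unadjusted p under 0.05, none of the 8 passed in either genotype, while 376 and 1109 of all genes did. Against fasting alone, cold plus fasting changed 5 adipokines in FF mice (background 52%) and 5 in BKO mice (background 45.1%). Lep rose by 2.37 (SE 0.39, adjusted p = 3.39e-05) in FF and by 2.30 (SE 0.39, adjusted p = 6.61e-05) in BKO mice. With a pseudocount of 0.1 these Lep rises were 4.34 and 4.35. Apln rose by 2.43 (SE 0.18) and 2.36 (SE 0.18), or 3.69 and 3.47 with that pseudocount, and Cfd fell by 1.62 (SE 0.19) and 2.24 (SE 0.19). Hp fell by 0.95 (SE 0.23, adjusted p = 0.00153) in FF mice and gave -0.53 (SE 0.23, adjusted p = 0.0649) in BKO mice. In BKO mice Adipoq was lower by 0.58 (SE 0.12, adjusted p = 0.000432) and Rbp4 higher by 0.78 (SE 0.22, adjusted p = 0.00721), the latter lost under quantile normalization (adjusted p = 0.0587). Among the 5 called in FF mice was Agt, which passed the filter through the fasted mice at room temperature, the reference here. It was lower by 0.45 (SE 0.17, adjusted p = 0.036), a call lost in 8 of 34 alternatives. They were a pseudocount of 0.1 (-0.75, adjusted p = 0.107), no filter (adjusted p = 0.06), the label number as covariate (0.0715), only the groups compared (0.0696), and leaving out FF cold plus fasting library 1 or 3 or FF fasted library 1 or 3.

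Whether fasting acted differently in cold than at room temperature was tested by 2 contrasts added after the other results were known. They called 2 adipokines in FF mice (background 21.6%) and 3 in BKO mice (background 13.1%). For Lep the fasting response in cold exceeded that at room temperature by 2.51 (SE 0.54, adjusted p = 0.00193) in FF and by 2.53 (SE 0.54, adjusted p = 0.00329) in BKO mice, or by 4.52 and 4.61 with a pseudocount of 0.1. For Hp the difference was 1.00 (SE 0.31, adjusted p = 0.025) and 1.63 (SE 0.31, adjusted p = 0.00131), and Hp in cold was already at 175 and 126 FPKM. For Apln it was 0.58 (SE 0.24, adjusted p = 0.091) in FF mice, or 1.3 (adjusted p = 0.00509) with a pseudocount of 0.1, and 1.42 (SE 0.24, adjusted p = 0.000443) in BKO mice, where that pseudocount gave 2.36. Cfd gave 0.45 (SE 0.26) and 0.03 (SE 0.26), neither of which passed.

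**Figure D4:**
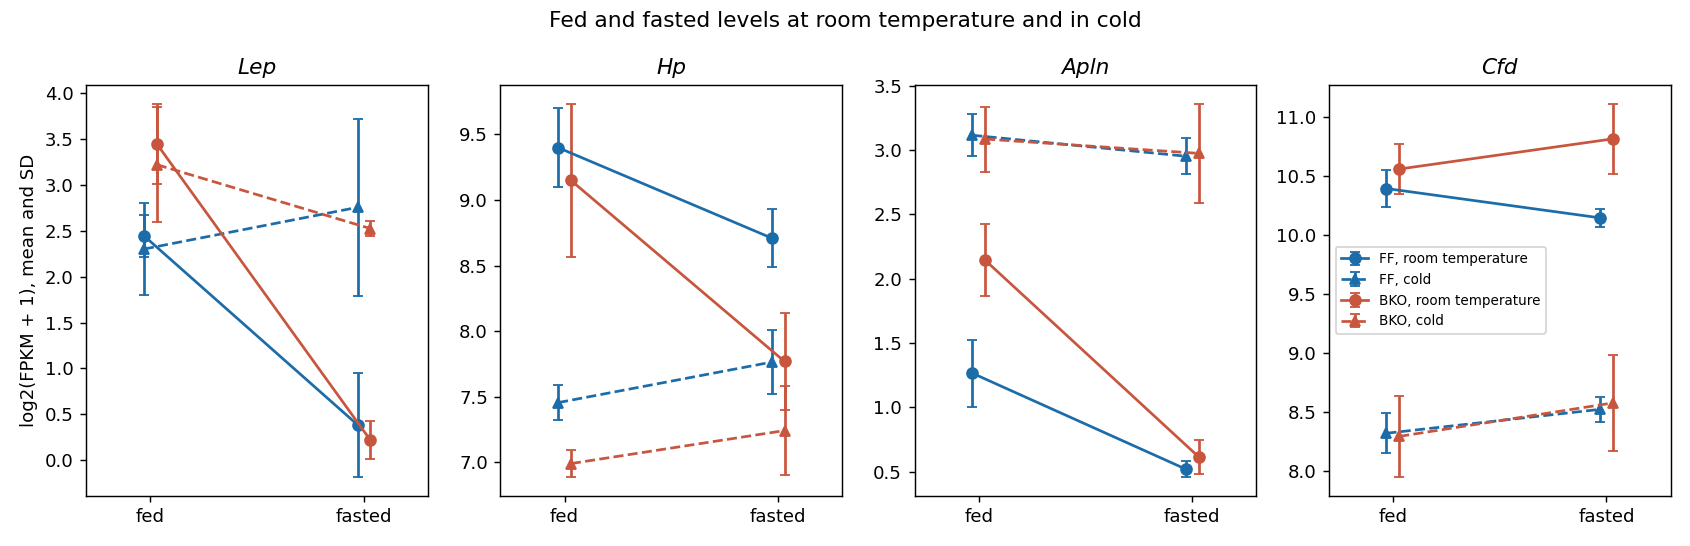
Mean log2(FPKM + 1) with SD (n = 3 or 4 libraries) of Lep, Hp, Apln and Cfd in fed and fasted mice at room temperature (solid lines, circles) and in cold (dashed lines, triangles), FF in blue and BKO in red. The solid lines of Lep, Hp and Apln go down with fasting, and none of the changes along the dashed lines passed the test.

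The genes around these hormones were followed with lists, whose counts stand beside the shares of all genes given above (37.5% and 27.4% with fasting, 23.6% and 16.2% with cold, in FF and BKO mice). Of 20 receptors and binding partners, 11 were tested. Lepr, the leptin receptor, never exceeded 0.136 FPKM, whereas Adipor2 lay at 167 to 357 FPKM and Adipor1 at 60.0 to 89.9. With fasting at room temperature 3 of the 11 rose and 3 fell in FF mice, and 2 rose and 3 fell in BKO mice, 54.5% and 45.5% of those tested. Adipor1 rose by 0.44 (SE 0.07) in FF and 0.30 (SE 0.07) in BKO mice. The adiponectin-binding cadherin Cdh13 fell by 0.89 (SE 0.12) and 0.69 (SE 0.12), and Lrp1, a large endocytic receptor, rose by 0.79 (SE 0.14) and 0.68 (SE 0.14). Adipor2 fell by 0.75 (SE 0.14) and 0.40 (SE 0.14). With cold 0 rose and 1 fell in FF mice, and none was called in BKO mice. Between genotypes 0 of the 11 were called in each condition.

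Of 14 alternative complement genes 9 were tested, beside Cfd. In cold 1 of them rose and 5 fell in each genotype, 66.7% of those tested, with list medians of -0.39 and -0.39. Clusterin (Clu), an inhibitor of complement lysis, fell by 0.86 (SE 0.15) in FF and 0.96 (SE 0.15) in BKO mice. Factor B (Cfb), the substrate of factor D, fell by 0.68 (SE 0.19) and 0.91 (SE 0.19). The membrane inhibitor Cd59a rose by 0.51 (SE 0.10) and 0.44 (SE 0.10). With fasting 0 rose and 5 fell in each genotype, 55.6% of those tested, and there Cd59a fell by 0.60 (SE 0.11) and 0.56 (SE 0.11). Cfb fell by 0.69 (SE 0.20) and 0.90 (SE 0.20), at a fasting response of Cfd that did not pass. In fasted mice Clu was lower in BKO than in FF mice by 0.83 (SE 0.16, adjusted p = 0.00266). It was the 1 of these 9 genes called between genotypes there, where Cfd was called higher.

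Among 17 regulators linked to leptin and insulin, all of them tested, 2 rose and 4 fell with fasting in each genotype. That is 35.3%, near the share of all genes. Srebf1, a lipogenic transcription factor, fell by 2.37 (SE 0.20) in FF and 2.00 (SE 0.20) in BKO mice. Epas1, a hypoxia-inducible factor, fell by 0.56 (SE 0.12) and 0.69 (SE 0.12). In FF mice the beta3-adrenergic receptor gene Adrb3 fell by 1.84 (SE 0.30) and Stat3, a mediator of leptin signaling, rose by 1.00 (SE 0.13). In fasted mice 3 of the 17 were higher and 2 lower in BKO than in FF mice, 29.4% against 8.68% of all genes. Adrb3 was higher by 1.41 (SE 0.30, adjusted p = 0.00489), Adrb1 higher by 1.46 (SE 0.36) and Foxo1 lower by 1.16 (SE 0.26). With cold 0 rose and 3 fell in FF mice, led by Foxo1, lower by 1.06 (SE 0.24), and 0 rose and 2 fell in BKO mice.

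Of 17 genes of adiponectin assembly and the related C1q/TNF family, 13 were tested. Gstk1, a glutathione transferase reported to assist adiponectin assembly, was lower in BKO than in FF mice in all 4 conditions, by 0.59 (SE 0.10) when fed, 0.90 (SE 0.10) when fasted, 0.67 (SE 0.08) in cold and 0.57 (SE 0.10) in cold plus fasting. It was the 1 gene of this list called in every condition. C1qtnf4 fell in cold by 0.62 (SE 0.15) in FF and 0.72 (SE 0.15) in BKO mice. Of the 21 other adipokines 15 were tested, and with fasting 4 rose and 5 fell in FF mice and 4 rose and 6 fell in BKO mice, 60% and 66.7% of those tested. Angptl2, a pro-inflammatory angiopoietin-like protein, fell by 1.06 (SE 0.10) and 1.58 (SE 0.10) there, and by 0.53 (SE 0.10) and 0.77 (SE 0.10) in cold. Retnla, a relative of resistin, fell in cold by 0.91 (SE 0.19) and 0.89 (SE 0.19). Lcn2, which passed the filter through the fed BKO mice alone, averaged 1.5 FPKM (SD 0.514, n = 3) there and 0.534 (SD 0.227, n = 3) in fed FF mice.

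Of 18 genes of retinoid transport and metabolism, 9 were tested. The retinol-binding protein gene Rbp7 rose with cold, as Rbp4 did, by 0.60 (SE 0.21) in FF and 0.81 (SE 0.21) in BKO mice, and the retinal reductase gene Dhrs3 fell with fasting by 1.08 (SE 0.15) and 0.75 (SE 0.15). The retinol transporter gene Stra6 was near 0 in every group. Of 14 renin-angiotensin genes 7 were tested. Ren1, for the enzyme that cleaves angiotensinogen, had a group mean of at most 0.0195 FPKM, while the receptor gene Agtr1a stood at 3.52 to 4.26 FPKM. With fasting 2 of the 7 rose and 1 fell in FF mice, with Agtrap up by 0.40 (SE 0.10), Atp6ap2 up by 0.54 (SE 0.13) and the peptidase gene Mme down by 0.63 (SE 0.21), 42.9% of those tested. In BKO mice 0 rose and 1, Mme, fell by 0.86 (SE 0.21). None of the 7 was called with cold in either genotype.

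Among themselves the adipokines did not vary as a block. Across the 26 libraries, which share group structure and conditions, Pearson's r was 0.84 between Cfd and Adipoq, 0.77 between Cfd and Hp and 0.74 between Hp and Retn. It was -0.88 between Cfd and Apln, 0.76 between Rbp4 and Apln and 0.72 between Lep and Apln. By the same measure the profiles most like each member, among tested genes averaging at least 2 FPKM, were 5730508B09Rik and Klhdc7a for Lep (both 0.91), Cdkn2c and Cfd for Adipoq (0.85 and 0.84) and Car3 and Esyt1 for Cfd (0.97 and 0.96). They were Trf and Ghr for Retn (0.80 and 0.78), Mmp2 and Pla2g16 for Hp (0.90 and 0.88) and Hspb8 and Mvd for Rbp4 (0.87 and 0.86). They were Gm8181 and Gphn for Agt (0.88 and 0.85) and Pigq and Tmem246 for Apln (0.97 for each). These are descriptions over libraries that fall into the study's groups.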

How the data were processed

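RNA from mouse brown adipose tissue was sequenced in 26 libraries. The authors aligned reads with STAR and computed FPKM with Cufflinks and Cuffdiff on mm10, per the submitters' processing notes, without versions. The deposited FPKM table has 48432 genes; its series design text gives 3 to 4 mice per group, and p-values measure the spread between these libraries. Genes needed at least 1 FPKM in 3 libraries, and 33 genes listed at 0 in some libraries but at 100 FPKM or more in all others were left out (no adipokine), leaving 12702. Log2(FPKM + 1) values were fitted with limma 3.58.1 in R 4.3.3, with 8 group means over all libraries, an intensity trend, two-sided tests and, per contrast, Benjamini-Hochberg adjusted p-values called under 0.05. Because values are not counts, no count test was run; depth was estimated from the step between low FPKM values. Alternatives were a pseudocount of 0.1, no filter, a mean of 5 FPKM, quantile normalization, array weights, the label number as covariate, label-number subsets, only the groups compared, zeros kept, no trend and each library left out.

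Genes named are the 8 adipokines, Klf15, up to 4 called members per list and comparison by smallest adjusted p, and for each adipokine the 2 genes with the highest Pearson correlation. Markers, genes near 0 that bear on an adipokine's receptor or enzyme, and members shown in both genotypes were named besides, after their values were seen. The members and lists were chosen with earlier results of these data known.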

Additional observations from a re-analysis of the deposited data

Results flagged for a closer look

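The response to fasting differed between cold and room temperature for 3 adipokines, by a test of the difference itself in the contrasts added later. For Lep the difference was 2.51 in FF and 2.53 in BKO mice, and both calls held in every alternative run. Those runs included the label number as a covariate, but the FF contrast could be fitted in neither label-number subset. For Hp it was 1.00 in FF and 1.63 in BKO mice, of which the FF call was lost in 8 of 35 alternatives, including array weights (0.69, adjusted p = 0.0859) and the removal of FF cold plus fasting library 2 or 3, FF fed library 2 or 3 or FF fasted library 3. For Apln it was 1.42 in BKO mice, a call that held in every alternative run. FF mice gave 0.58 for Apln, which did not pass, and whether the 2 genotypes differ in this was not tested. In the 16 cold groups of 4 libraries, 2 per adipokine, 0 held a library that stood apart by Dixon's gap test. Groups of 3 libraries were not tested for this, among them the FF groups with Lep libraries at 13.6 and 1.06 FPKM.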

How the results depend on the processing

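Of 48 calls made for the adipokines over all contrasts, 30 held under every alternative that gave a value, and the other 18 were lost in at least 1. No call changed sign; the difference of Adipoq between cold plus fasting and fasting in FF mice, -0.11 and not called, became 0.03 with the label number as a covariate. Between genotypes within conditions, the 4 calls became 2 with no filter and 0 with the label number as covariate or with only the groups compared; leaving out 1 library gave 2 to 4. Averaged over conditions, 1 call became 2 with array weights and 0 with the label number as covariate, and 1 to 2 without single libraries. The 13 responses in FF mice were 10 to 14 without single libraries. The 15 in BKO mice were 12 to 16 without single libraries. For cold plus fasting against each stress, the 10 calls were 9 to 11 without single libraries. Label numbers 15 to 32 hold no FF fasted library and 1 FF library each of the fed and cold groups. For cold plus fasting against fasting they leave the BKO calls alone, and calls involving FF fasting could not be fitted there. Of the calls that could be, 0 of 1 between genotypes within conditions was made there, 6 of 9 among FF responses, and 5 of 5 for cold plus fasting against each stress. Differences between the genotypes' responses, 0 calls, became 3 with array weights, all of them Apln. Apln and Agt were not tested at a mean of 5 FPKM.

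No paired analysis was possible because the labels carry no replicate number that the groups share, and replicates were numbered in accession order. Lep in fasted mice, at 0.899 to 90.1 estimated fragments, is limited by depth.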
